A study of Mus musculus with 16 samples.

Results

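The genes described here are 4 leukocyte adhesion molecules of activated endothelium, Vcam1, Icam1, Selp and Sele, taken by symbol from the 17715 entries of the deposited table. Each symbol matched 1 entry, and all 4 were among the 14303 entries with at least 1 RPKM (a read count scaled by transcript length and library depth) in at least 4 of the 16 libraries. Vcam1, Icam1 and Selp reached 1 RPKM in all 16 libraries. Sele reached it in 7 of the 16 and in 0 of the 4 tumour-free libraries, so it entered the test through the later groups alone.

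RNA was sequenced from endothelial cells that had been sorted by flow cytometry from the lungs of female C57BL/6N mice. The Lewis lung carcinoma (LLC), a mouse tumour cell line that is known to spread to the lung, had been placed under the skin. The groups were wild-type mice without tumour (d0), mice with the primary tumour (d15), mice after its resection (d22) and mice with metastases (d36), with 4 libraries each, which the series calls independent biological replicates. The labels give no operated or injected controls for d0, no age, and no antibodies or gate of the sort. The title of d36 replicate 1 names day 29 while its time point field, followed here, reads d36.

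Leukocytes leave the blood in steps. P-selectin (Selp) and E-selectin (Sele) on the vessel wall bind sugar ligands on passing leukocytes and make them roll. ICAM-1 (Icam1) and VCAM-1 (Vcam1), members of the immunoglobulin superfamily, then bind leukocyte integrins and hold the cells in place. Inflammatory cytokines induce these genes through NF-kB, and P-selectin is also kept ready in the storage granules of endothelial cells. In the lung, the venous side of the circulation is richest in VCAM-1 and P-selectin, whereas ICAM-1 is present on resting capillary endothelium and on alveolar type I epithelium.

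On the mm10 annotation (GENCODE M21), Vcam1 (ENSMUSG00000027962.14) occupies bases 116109949 to 116129688 of chromosome 3 and is read from the minus strand. Icam1 (ENSMUSG00000037405.8) occupies bases 21015985 to 21028817 of chromosome 9 and is read from the plus strand. Both selectin genes are on the plus strand of chromosome 1, Sele (ENSMUSG00000026582.6) at bases 164048234 to 164057677 and Selp (ENSMUSG00000026580.16) at 164115264 to 164150026. All 4 are annotated as protein coding. The 250 bases before the RefSeq start (GRCm38.p6, the mm10 assembly) are shown for the 3 members in the promoter table, Icam1, Selp and Sele (not Vcam1), so that the motifs in this window can be compared. Capitals mark matches on either strand to GGNNNTTCC (an NF-kB-like motif, with reverse complement GGAANNNCC), TGANTCA (AP-1), TTCNNNGAA (STAT) or TATAAA (a core promoter box).
Icam1, chr9:21015690-21015939, plus strand: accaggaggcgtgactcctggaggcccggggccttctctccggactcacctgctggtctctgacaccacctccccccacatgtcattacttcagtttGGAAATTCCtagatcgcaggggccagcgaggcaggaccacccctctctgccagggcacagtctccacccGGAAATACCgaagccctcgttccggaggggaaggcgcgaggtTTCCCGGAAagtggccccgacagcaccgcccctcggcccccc
Selp, chr1:164115014-164115263, plus strand: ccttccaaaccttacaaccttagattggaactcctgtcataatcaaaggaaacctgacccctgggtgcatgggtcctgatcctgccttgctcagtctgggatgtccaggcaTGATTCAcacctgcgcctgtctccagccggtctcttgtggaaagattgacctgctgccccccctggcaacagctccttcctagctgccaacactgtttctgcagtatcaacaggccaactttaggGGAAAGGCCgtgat
Sele, chr1:164047984-164048233, plus strand: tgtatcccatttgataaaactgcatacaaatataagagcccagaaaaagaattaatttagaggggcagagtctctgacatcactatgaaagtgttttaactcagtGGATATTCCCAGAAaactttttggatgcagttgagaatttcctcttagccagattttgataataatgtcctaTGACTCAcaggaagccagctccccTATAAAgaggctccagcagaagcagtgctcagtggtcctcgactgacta
The NF-kB-like letters stood in each of the 3 windows. They were also in 15.7% of all 32536 promoter windows of this length. Icam1 held GGAAATTCC, which matches on both strands, from 153 to 145 bases before the start, and Sele held GGATATTCC from 145 to 137 bases before it. In Sele the TTCCCAGAA match to the STAT motif overlaps the NF-kB-like one, and Icam1 held TTCCCGGAA as a STAT match from 42 to 34 bases before its start. The STAT motif was in 7.04% of all windows. AP-1 letters were in the windows of Selp (TGATTCA) and Sele (TGACTCA) and in 6.73% of all windows, and TATAAA was in that of Sele and in 12.3% of all. These matches describe the sequence and were not tested as binding sites.

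Depth, estimated from the step between low RPKM values, was approximately 93.4 to 152.1 megareads per library. By the length of its 1 annotated transcript, the lowest Sele value of all, in d0 replicate 1, rested on about 48 reads. The endothelial label matched its markers: the 12 pan-endothelial genes, among them Pecam1 and Cdh5, summed to 4010 to 7039 RPKM and none was at 0 in any library. By group the sum was 5940 to 7039 RPKM at d0, 5274 to 6710 at d15, 4998 to 5651 at d22 and 4010 to 5281 at d36. Every d22 and d36 library was thus below the d0 range. Among the d36 libraries, replicate 9 differed from the other 3 in its marker levels. The 4 carcinoma-associated markers (Rhox5, Krt8, Krt18 and Krt19) summed to 21.1 RPKM there and to 169.5 to 299 in the other d36 libraries, against 2.49 to 9.00 in the 12 libraries of d0, d15 and d22.

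In tumour-free lung endothelium the 4 levels fell in the order Icam1, Vcam1, Selp, Sele, with no overlap between neighbours over the 4 libraries. The mean of Icam1 was 27.1 ± 4.03 RPKM (SD, n = 4), that of Vcam1 7.58 ± 2.13, that of Selp 1.78 ± 0.367 and that of Sele 0.430 ± 0.237. RPKM values are per length of transcript, but the length used for each gene is not given in the sources used here. For Vcam1 the longest annotated transcript has 4088 bases and all its exons together 8870. The order of the genes, above all of Icam1 and Vcam1 at d22 and d36, may therefore depend on the length used. Icam1 lay above 89.7% of all entries at d0 and Sele above 10.7%. At d15 the order was the same, again without overlap. At d22 Vcam1 (26.4 ± 8.02 RPKM) and Icam1 (31.5 ± 2.60) overlapped, and each was the higher of the pair in 2 of 4 libraries. At d36 all neighbours overlapped in range, although Icam1 was above Vcam1, Vcam1 above Selp and Selp above Sele in each of the 4 libraries.

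**Figure D1:**
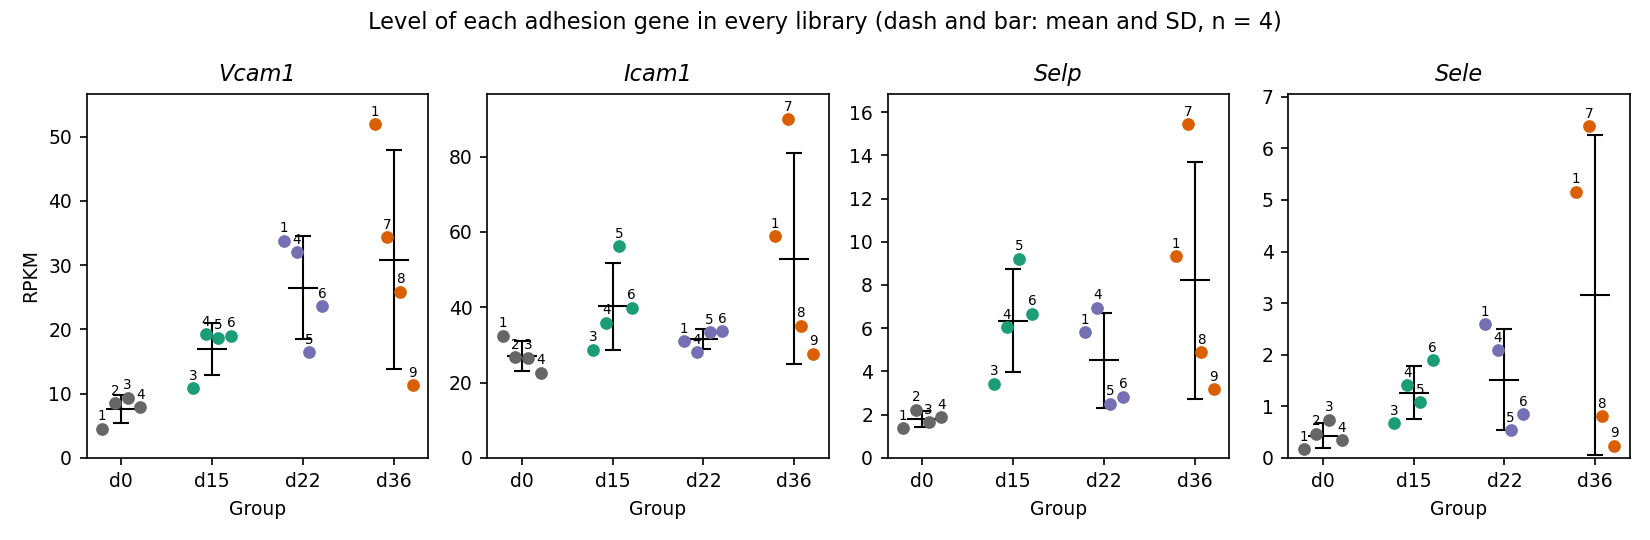
RPKM of Vcam1, Icam1, Selp and Sele (linear axes that start at 0) in the 4 libraries of each group. Points are libraries with their replicate number, dashes are means and bars the SD. Vcam1 and Selp libraries of d15, d22 and d36 all lie above the d0 range, and d36 replicate 9 is the lowest d36 library in every panel.

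The VCAM-1 gene lay above 72.4% of all entries at d0, and its mean at each later time point was higher than at d0. Vcam1 stood at 4.52, 8.52, 9.38 and 7.91 RPKM in d0 replicates 1 to 4. With a primary tumour it read 10.8, 19.2, 18.7 and 19.0 RPKM in d15 replicates 3, 4, 5 and 6. After resection it was 33.8, 32.0, 16.4 and 23.6 RPKM in d22 replicates 1, 4, 5 and 6. Every d15 and d22 library lay above the highest d0 library, which 5.34% of tested entries did at d15 and 14.2% at d22. With metastases it reached 52.0, 34.4, 25.9 and 11.3 RPKM in d36 replicates 1, 7, 8 and 9, again all above d0, as for 13.9% of entries. The group means were 2.24, 3.49 and 4.07 times that of d0 at d15, d22 and d36.

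P-selectin followed at a lower level. Selp was 1.36, 2.23, 1.66 and 1.87 RPKM in the d0 libraries. Levels were 3.43, 6.06, 9.22 and 6.68 RPKM at d15 and 5.82, 6.95, 2.50 and 2.83 at d22, in the same order of replicates. In d36 replicates 1, 7, 8 and 9 it read 9.33, 15.5, 4.88 and 3.17 RPKM. All 12 libraries of d15, d22 and d36 were above the highest d0 library, and the means were 3.56, 2.54 and 4.61 times that of d0. Such a lack of overlap was found for 5.34% of tested entries at d15, 14.2% at d22 and 13.9% at d36.

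E-selectin was the lowest of the 4 genes. Sele was listed at 0.174, 0.465, 0.737 and 0.345 RPKM at d0, at 0.678, 1.41, 1.08 and 1.89 at d15 and at 2.59, 2.09, 0.530 and 0.852 at d22. At d36 the spread was wide, with 5.16, 6.43, 0.811 and 0.236 RPKM. Replicate 9 of d36 lay within the d0 range, and 1 library each of d15 and d22 was also below the highest d0 library. The means were 2.94, 3.52 and 7.34 times that of d0.

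Icam1 had the highest mean RPKM in each group and the smallest relative differences from d0. The d0 libraries held 32.4, 26.7, 26.6 and 22.6 RPKM. Those of d15 held 28.7, 35.9, 56.3 and 39.9 RPKM, and those of d22 31.0, 28.0, 33.4 and 33.6. At d36 it was 58.9, 90.0, 35.1 and 27.6 RPKM. Each later group overlapped d0, and the means were 1.48, 1.16 and 1.95 times that of d0.

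Within d0 and d22, Icam1 ordered the libraries otherwise than the other 3 genes. Replicates 1 and 4 of d22 were the 2 highest for Vcam1, Selp and Sele and the 2 lowest for Icam1. Replicate 1 of d0 was the lowest for Vcam1, Selp and Sele and the highest for Icam1. At d15 replicate 3 was the lowest of its group for all 4 genes, and at d36 replicates 1 and 7 were the 2 highest and replicate 9 the lowest for all 4. The highest d15 library was replicate 4 for Vcam1, 5 for Icam1 and Selp, and 6 for Sele. Icam1 and Selp had the same order of libraries at d15 and at d36. Replicates were not tested against each other.

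Whether the endothelium of the lung changed while the tumour grew elsewhere is asked by d15 against d0. In limma over all tested entries, 0 of the 4 members passed at an adjusted p of 0.05 (Benjamini-Hochberg), where 0.608% of entries were called higher. Selp had the largest estimate, a log2 fold change of 1.35 ± 0.36 on log2(RPKM + 1) (SE, limma adjusted p = 0.0777, unadjusted p = 0.00163). Vcam1 had 1.07 ± 0.35 (limma adjusted p = 0.135), Sele 0.65 ± 0.44 (0.507) and Icam1 0.52 ± 0.27 (0.349). At an unadjusted p under 0.05, 2 of the 4 passed, Vcam1 and Selp, where 7.26% of entries passed as higher. Their 95% intervals were 0.34 to 1.81 for Vcam1 and 0.59 to 2.11 for Selp. The intervals of Icam1 (-0.050 to 1.09) and Sele (-0.28 to 1.58) included 0 and also more than a doubling.

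The test of d15 shared its estimate of the spread with d36, where these genes varied most. The SD of Selp was 2.38 RPKM at d15 and 5.48 at d36. With only d15 and d0 in the fit, Vcam1 (limma adjusted p = 0.0191) and Selp (0.0064) were called, 2 of 4 against 1.83% of entries called higher. Without the d36 group they were called too (adjusted p = 0.0198 and 0.00983), against 2.39% of entries. Array weights called Selp (adjusted p = 0.0225), against 2.59% of entries.

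After resection, d22 against d0, 1 of the 4 members was called higher, where 8.09% of entries were. Vcam1 rose by a log2 fold change of 1.67 ± 0.35 (limma adjusted p = 0.00526), and its 95% interval ran from 0.93 to 2.40. Without 1 library at a time it passed in 8 of 8 fits, with changes of 1.47 to 1.87. Selp stood at 0.91 ± 0.36 (limma adjusted p = 0.099), Sele at 0.74 ± 0.44 (0.279) and Icam1 at 0.22 ± 0.27 (0.634). With only d22 and d0 in the fit, Selp (adjusted p = 0.0188) and Sele (0.0452) were called besides Vcam1, 3 of 4 against 12.5% of entries. Sele had reached 1 RPKM in 0 of the d0 libraries and was tested through the later groups alone. Without the d36 group the same 3 were called, with Selp at 0.0236 and Sele at 0.0374, against 11.8% of entries. Array weights called Selp as well (adjusted p = 0.0126), against 15.4% of entries. The interval of Icam1 ran from -0.35 to 0.79.

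With metastases in the lung, d36 against d0, 3 of the 4 members were called higher, where 16.6% of entries were. Vcam1 rose by a log2 fold change of 1.75 ± 0.35 (limma adjusted p = 0.00209), Selp by 1.54 ± 0.36 (0.00608) and Icam1 by 0.81 ± 0.27 (0.0389). Sele, with 1.17 ± 0.44, did not pass (limma adjusted p = 0.0648). Without d36 replicate 9 all 4 passed, with Vcam1 at 2.14, Selp at 1.86, Sele at 1.62 and Icam1 at 1.06, against 21.8% of entries called higher. Among them, Sele had entered the test through the later groups alone. Sele also passed without d36 replicate 8, and its change was 0.76 without replicate 7 (adjusted p = 0.21).

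The call of Icam1 at d36 changed with the libraries and settings used. It passed in 3 of the 8 fits that each left out a library, and its change was 0.50 without d36 replicate 7 (limma adjusted p = 0.128). It was lost with only d36 and d0 in the fit (adjusted p = 0.11) and when libraries were scaled to the same median (0.67, adjusted p = 0.0713). That scaling moved the median change of all entries at d36 from 0.043 to -0.097, and the higher share of all calls from 69.3% to 38.1%. Vcam1 and Selp kept their calls at d36 in each of these settings. With only d36 and d0 in the fit, 10.7% of entries were called higher.

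**Figure D2:**
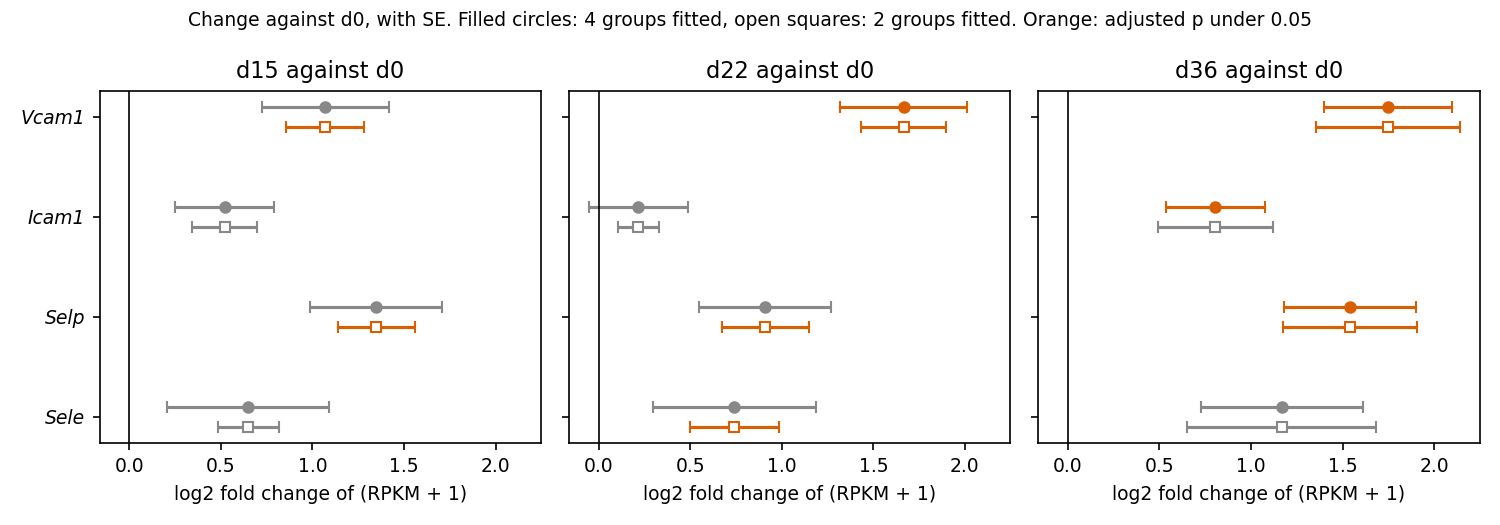
Log2 fold change of (RPKM + 1) of each gene against d0 with its SE from limma, for d15, d22 and d36. Filled circles come from the fit of all 4 groups and open squares from that of the 2 groups compared, and orange marks an adjusted p under 0.05. Vcam1 is orange with both at d22 and d36, and Selp at d15 and d22 with the 2 groups alone.

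Between the later time points none of the members was called. This held for 0 of 4 in d22 against d15, where 3.06% of entries were called in either direction, in d36 against d15 (11.5%) and in d36 against d22 (11.8%). At an unadjusted p under 0.05 in limma, 1 of these 12 tests passed, Icam1 in d36 against d22 (0.59 ± 0.27, adjusted p = 0.165). At that unadjusted level 20.3% of entries passed in d22 against d15, 26.1% in d36 against d15 and 28.3% in d36 against d22. Vcam1 differed by 0.59 ± 0.35 between d22 and d15, with a 95% interval from -0.14 to 1.33, so neither no change nor a doubling lay outside it. Selp went by -0.44 ± 0.36 in the same comparison (-1.20 to 0.32). Without d36 replicate 9, Vcam1 was called in d36 against d15 (1.07, limma adjusted p = 0.0109), and Icam1 (0.84, 0.0173) and Selp (0.94, 0.0455) in d36 against d22. In the fits without it, the share of all entries called in either direction was also larger, 20.8% and 26.4%. A moderated F test over the 3 comparisons with d0, which called 28.7% of entries, called Vcam1 (adjusted p = 0.00498) and Selp (0.0161) but neither Icam1 (0.104) nor Sele (0.196).

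The authors' deposited table lists its own log2 fold changes and adjusted p-values for d15, d22 and d36, with no comparison group named. For d15 the authors' deposited table gives Selp 1.79 (adjusted p = 6.52e-11), Sele 1.44 (0.000532), Vcam1 1.16 (7.19e-06) and Icam1 0.60 (0.0145). All 4 are thus under 0.05 in the authors' deposited table, where 5.07% of entries with a p are called higher for d15. For d22 the authors' deposited table gives Vcam1 1.69 (8.01e-07), Sele 1.39 (0.0242), Selp 1.29 (4.65e-05) and Icam1 0.25 (0.117), against 16.5% of entries. For d36 the authors' deposited table gives Sele 2.28 (0.0222), Selp 2.10 (3.53e-06), Vcam1 1.93 (3.65e-06) and Icam1 0.93 (0.0161), against 16.9%. Its fold changes are larger than those on log2(RPKM + 1) most of all for Sele, the member nearest to 0, since the added 1 shrinks changes of low values.

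Ratios of 2 members within a library do not depend on how the library was scaled, apart from the added 1. The log2 ratio of Vcam1 to Icam1 was -1.74 ± 0.58 at d0 (SD, n = 4, values of RPKM + 1), and -1.19 ± 0.30 at d15, -0.29 ± 0.55 at d22 and -0.80 ± 0.58 at d36. All 4 libraries of d22 and of d36 were above all of d0 (exact two-sided permutation p = 0.0286 for each, the smallest that 4 against 4 allows). The ratio of Vcam1 to Selp was 1.60 ± 0.30 at d0 and 2.35 ± 0.26 at d22, a difference of 0.75 with the same exact permutation p, while at d15 it was 1.32 ± 0.25 (exact permutation p = 0.257). The added 1 widens the difference at d22, as Selp was low at d0. Without it, the mean RPKM of Vcam1 was 4.26 times that of Selp at d0 and 5.84 times at d22. Selp to Sele went from 0.96 ± 0.24 at d0 to 1.66 ± 0.43 at d15 (exact permutation p = 0.0286). Sele was below 1 RPKM in each d0 library, so the added 1 shapes this ratio and its separation. Without the added 1, the mean RPKM of Selp was 4.14 times that of Sele at d0 and 5.02 times at d15. Adjusted over the 9 tests of 3 ratios, none passed 0.05, and the 4 smallest had an adjusted p of 0.0643.

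**Figure D3:**
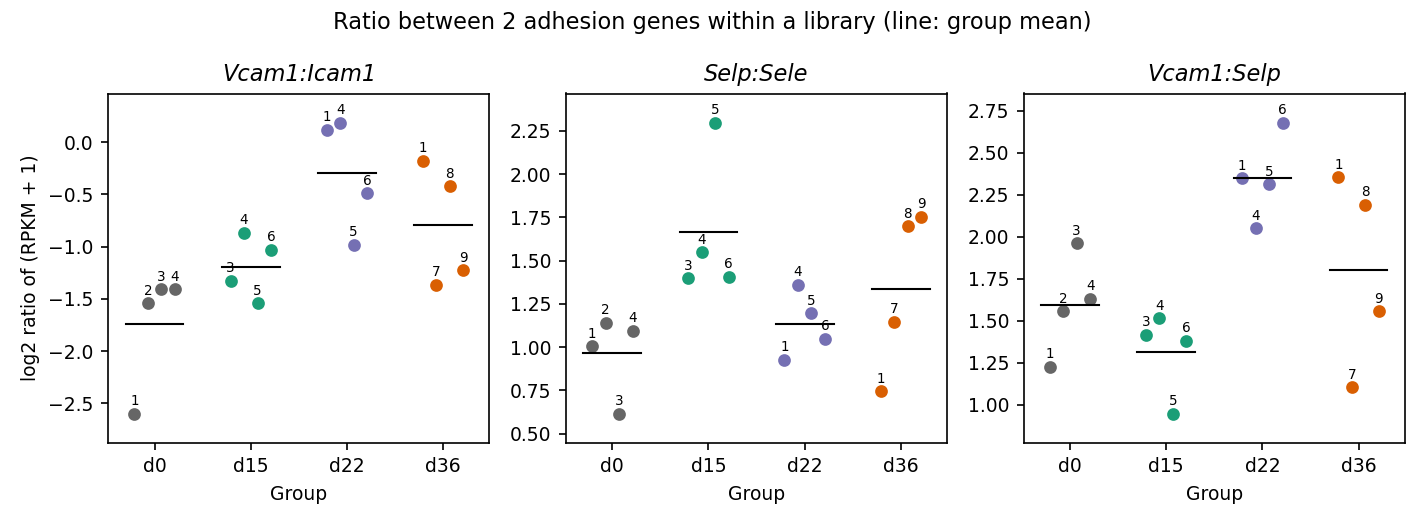
Log2 ratio of (RPKM + 1) for Vcam1 to Icam1, Selp to Sele and Vcam1 to Selp in each library, with replicate numbers and a line at the group mean. With the added 1, the d22 libraries lie above all d0 libraries for Vcam1 to Icam1 and Vcam1 to Selp, and d0 replicate 1 is the lowest d0 library for both.

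The genes whose pattern was most like each member were taken by Pearson's r on log2(RPKM + 1) over the 16 libraries, among 8387 named genes with a mean of at least 2 RPKM. These values describe the pattern and carry no test, and libraries of a group share their condition. Vcam1 was most like Nr2f2, the transcription factor of venous identity (r = 0.90, and 0.92 over the 12 libraries without d36), and next like Tnfaip8 and the phospholipase gene Pla2g4a. Nr2f2 had means of 1.82, 3.55, 4.86 and 4.84 RPKM at d0, d15, d22 and d36. Selp was most like 2200002D01Rik (r = 0.94), with the transcriptional regulator gene Sbno2 and the stress-induced factor Atf3 next (0.92 and 0.91). Icam1 was most like Sbno2 (0.93), whose means were 5.22, 17.3, 12.0 and 32.2 RPKM, with Sowahc and the kinase gene Map3k8 next. Sele was most like Rnd1 (0.90, but 0.71 without d36), with 2200002D01Rik and Mafk next.

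Like Vcam1 and Selp, most venous markers had positive estimates against d0. All 6 venous markers, which exclude the members themselves, had positive estimates at d15 and d22 and 5 of 6 at d36, with medians of 0.90, 0.94 and 0.70, against -0.017, 0.022 and 0.043 over all tested entries. In limma 3 were called higher at d15, 4 at d22 and 2 at d36, where 0.608%, 8.09% and 16.6% of all entries were. Those of d15 were Vwf, Darc and Slc6a2, which passed in 1, 1 and 0 of the 8 fits that each left out a library. Darc, called at d15 and d36, averaged 0.182 ± 0.0576 RPKM at d0 and entered the test through the later groups alone. Nr2f2 rose at d22 (1.05 ± 0.20, adjusted p = 0.00296) and at d36 (1.04 ± 0.20, adjusted p = 0.00150). At d22 so did Bst1 (1.19 ± 0.23, adjusted p = 0.00378) and Slc6a2, the noradrenaline transporter (1.59 ± 0.37, adjusted p = 0.00908), and all 3 passed whichever library was left out. The summed level of the list was 101 to 162 RPKM at d0, 218 to 276 at d15, 203 to 263 at d22 and 113 to 280 at d36. In d36 against d15 and against d22 the list had medians of -0.36 and -0.31, with 1 of 6 estimates positive in each. One marker was called lower in each, where 11.5% and 11.8% of entries were called in either direction. Vcam1 (0.68 and 0.08) and Selp (0.19 and 0.63) had positive estimates in these comparisons, and none of those was called. In sorted bulk cells, a larger share of venous cells and more RNA of these genes per cell cannot be told apart.

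Other adhesion and transmigration molecules of endothelium did not move as a group. Over all tested entries 0.608%, 8.09% and 16.6% were called higher at d15, d22 and d36, and 1.18%, 15.2% and 24.0% in either direction. Of 30 listed genes 25 were tested, with a median of 0.088 at d15, 0.014 at d22 and -0.049 at d36. One was called higher at d15, Darc (now Ackr1), the chemokine-binding receptor of venules, at 0.182 ± 0.0576 RPKM at d0 and 3.29 ± 1.66 at d15 (limma adjusted p = 0.0324), and it passed in 1 of 8 fits without 1 library. Darc, like Sele, entered the test through the later groups alone, which bears on its calls at d15 and d36. At d22 Cd44, a receptor for hyaluronan, was called higher (0.67 ± 0.21, adjusted p = 0.0437, passed in 0 of 8 such fits). Icam2, the constitutive relative of Icam1, fell from 124 ± 7.83 to 88.2 ± 6.01 RPKM (-0.49 ± 0.13, adjusted p = 0.019, lost without d22 replicate 6 at 0.0635). At d36, 6 were called higher and 3 lower. Cd44 (1.26), Ezr, which links adhesion molecules to the cytoskeleton (1.61), and Darc (1.55) rose, and Icam2 fell by 0.54, each in 8 of 8 such fits.

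Of the cytokines that induce these adhesion molecules, 7 of 10 were in the table and 1 was tested. That one, Il1a, fell from 2.74 ± 0.453 RPKM at d0 to 0.984 ± 0.384 at d15 (-0.93 ± 0.19, limma adjusted p = 0.0287, passed in 2 of 8 fits without 1 library) and to 1.02 ± 0.371 at d22 (-0.90 ± 0.19, adjusted p = 0.00538, 8 of 8). It stood at 2.32 ± 0.871 RPKM at d36. The other 6 were too low for the test and had means under 0.5 RPKM at d0, d15 and d22, but higher ones at d36. Il6 averaged 0.0121, 0.239, 0.395 and 4.41 RPKM at the 4 time points, and Il1b, Osm and Tnf averaged 2.29, 1.46 and 1.15 RPKM at d36. The 7 cytokines summed to 2.50 to 3.77 RPKM at d0, 1.48 to 2.35 at d15, 1.14 to 2.00 at d22 and 3.88 to 26.2 at d36, lowest there in replicates 1 and 9. Among 10 tested cytokine receptors 3 were called higher at d15, 1 at d22 and 2 at d36, and none lower, with medians of 0.46, 0.17 and 0.33. Of all tested entries 0.608%, 8.09% and 16.6% were called higher at these time points. Tnfrsf1a, the main receptor for TNF, rose at d15 from 26.5 ± 1.93 to 40.4 ± 0.158 RPKM (0.59 ± 0.10, adjusted p = 0.0151, lost without d0 replicate 3 at 0.0667). Osmr, the oncostatin M receptor, and Il4ra, of the receptor for interleukin 4, were called at d15 too, and passed in 2 and 1 of 8 such fits. Il1r1, the interleukin 1 receptor, rose at d36 (0.94 ± 0.14, adjusted p = 0.000321, 8 of 8).

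Calls among genes of the NF-kB pathway went in both directions. Over all tested entries 1.18%, 15.2% and 24.0% were called in either direction at d15, d22 and d36. Of 11 tested activators, with medians of 0.028, 0.023 and 0.27 at the 3 time points, 0 were called at d15. At d22 2 fell, the subunit gene Rela (-0.46 ± 0.09, limma adjusted p = 0.00419, 8 of 8 fits) and the adaptor gene Traf2 (-0.46, 1 of 8). At d36 Rela was lower by a similar amount (-0.38 ± 0.09, adjusted p = 0.00723) and Rel rose (0.65 ± 0.17, adjusted p = 0.0126). Of 9 inhibitors and flow-regulated factors, with medians of 0.13, -0.10 and 0.16, 0 were called at d15. At d22 Gata6, a transcription factor reported to act on the Vcam1 promoter, rose (0.66 ± 0.15, adjusted p = 0.00838, 8 of 8) and Klf2, the shear-stress factor that restrains adhesion molecules, fell from 68.0 ± 7.31 to 41.7 ± 14.9 RPKM (-0.75 ± 0.25, adjusted p = 0.0498, passed in 1 of 8). At d36 3 were called higher. The feedback inhibitor gene Tnfaip3 went from 1.34 ± 0.726 to 7.82 ± 7.52 RPKM and passed in 2 of 8 fits without 1 library (0.97 without d36 replicate 7, adjusted p = 0.109).

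P-selectin is stored with von Willebrand factor, and 13 genes of these granules were tested, with medians of 0.27, 0.25 and 0.060. At d15 3 rose: Vwf itself from 44.0 ± 3.43 to 97.5 ± 26.5 RPKM (1.09 ± 0.22, limma adjusted p = 0.0261), the endothelin gene Edn1 (0.63) and Myrip, which tethers granules (0.84). They passed in 1, 2 and 1 of 8 fits without 1 library. At d22 Vwf was called higher (0.67, adjusted p = 0.0463, 1 of 8) and the fusion gene Vamp8 fell (-0.66 ± 0.12, adjusted p = 0.00306, 8 of 8). At d36 Cd63, a granule membrane protein that other cells also carry, rose from 11.3 ± 2.20 to 99.0 ± 55.0 RPKM (2.70 ± 0.43, adjusted p = 0.000464). Of the 5 genes for shedding of adhesion molecules from the cell surface, the protease genes Adam10 (0.65 ± 0.10, adjusted p = 0.000891) and Adam17 (0.47 ± 0.13, adjusted p = 0.0242, passed in 4 of 8) rose at d22. None of the 5 was called at d15 and 3 were higher at d36, with medians of 0.11, 0.44 and 0.49. Of all tested entries 0.608%, 8.09% and 16.6% were called higher at d15, d22 and d36.

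Markers of other cells differed between the time points. The 7 macrophage genes, a cell type that can carry VCAM-1, summed to 0.909 to 3.40 RPKM in the 12 libraries of d0, d15 and d22, with 2 to 6 of them at 0. Platelets carry P-selectin, and the 4 platelet genes summed to 1.44 to 2.07 RPKM at d0, 2.75 to 4.48 at d15, 2.08 to 3.27 at d22 and 2.94 to 16.1 at d36. Itgb3, which endothelium also expresses, made up most of this at d0 to d22, and the defining platelet gene Pf4 averaged 0.202, 0.456, 0.395 and 3.57 RPKM. The platelet genes were highest in d36 replicate 7, the library with the highest Selp, and their part in Selp was not tested. Lung epithelium markers, of which alveolar type I cells carry ICAM-1, summed to 415 to 569 RPKM at d0, 688 to 1980 at d15, 213 to 701 at d22 and 218 to 471 at d36, mostly Sftpc of alveolar type II cells. The type I genes Ager and Hopx averaged 20.5 and 21.7 RPKM at d0 and 22.9 and 12.0 at d15, and the part of these cells in Icam1 was not tested.

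Of the markers tested, 5 of 7 leukocyte, 2 of 3 macrophage, 1 of 2 platelet, 2 of 3 fibroblast and pericyte and 1 of 4 carcinoma genes passed the filter on low values only through d36 libraries, so their calls at d36 are not counted. By summed level, leukocyte markers were at 56.2 to 80.1 RPKM at d0, 81.5 to 169.5 at d15, 46.4 to 90.8 at d22 and 88.1 to 229 at d36. Cd52, Tyrobp and Rac2 averaged only 0.134, 0.526 and 0.125 RPKM at d0 and 0.0347, 0.459 and 0.195 at d15. The sums at d0 and d15 thus came mostly from other genes of the list and do not stand for all its markers. Of the 7 tested leukocyte markers 0 were called at d15, with a median log2 fold change of -0.014 and 3 positive estimates. The highest d15 sum was that of replicate 4, which also had the highest epithelium sum (1980 RPKM). Fibroblast and pericyte markers were at 0.781 to 6.65 RPKM in the 12 earlier libraries and at 2.86 to 42.7 at d36. Of 12 endothelial markers 3 were called lower (Tie1, Egfl7 and Esam) and 1 higher (Flt1) at d36, where 24.0% of entries were called in either direction. Rhox5, a homeobox gene of tumour lines, went from 0.103 ± 0.0804 to 87.0 ± 56.5 RPKM at d36. The carcinoma sum was 299, 215, 169.5 and 21.1 RPKM in replicates 1, 7, 8 and 9, and that of the macrophage genes 15.2, 39.7, 39.1 and 8.92. Replicate 9 was thus the lowest for both lists and for all 4 adhesion genes. Of 5 tested leukocyte receptors for the members 0 were called at d15 and d22, where 1.18% and 15.2% of entries were in either direction. Among the 5, 3 (Itgb2, Itgb7 and Itgam) passed the filter only through d36. Itgb2, the integrin subunit that binds ICAM-1, went from 0.447 ± 0.425 to 12.1 ± 7.47 RPKM at d36. Itgam, its partner, was listed at 0 in each d0 library and at 1.99 ± 1.16 RPKM at d36. The part of these cells in the d36 levels of Vcam1, Icam1, Selp and Sele was not tested.

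**Figure D4:**
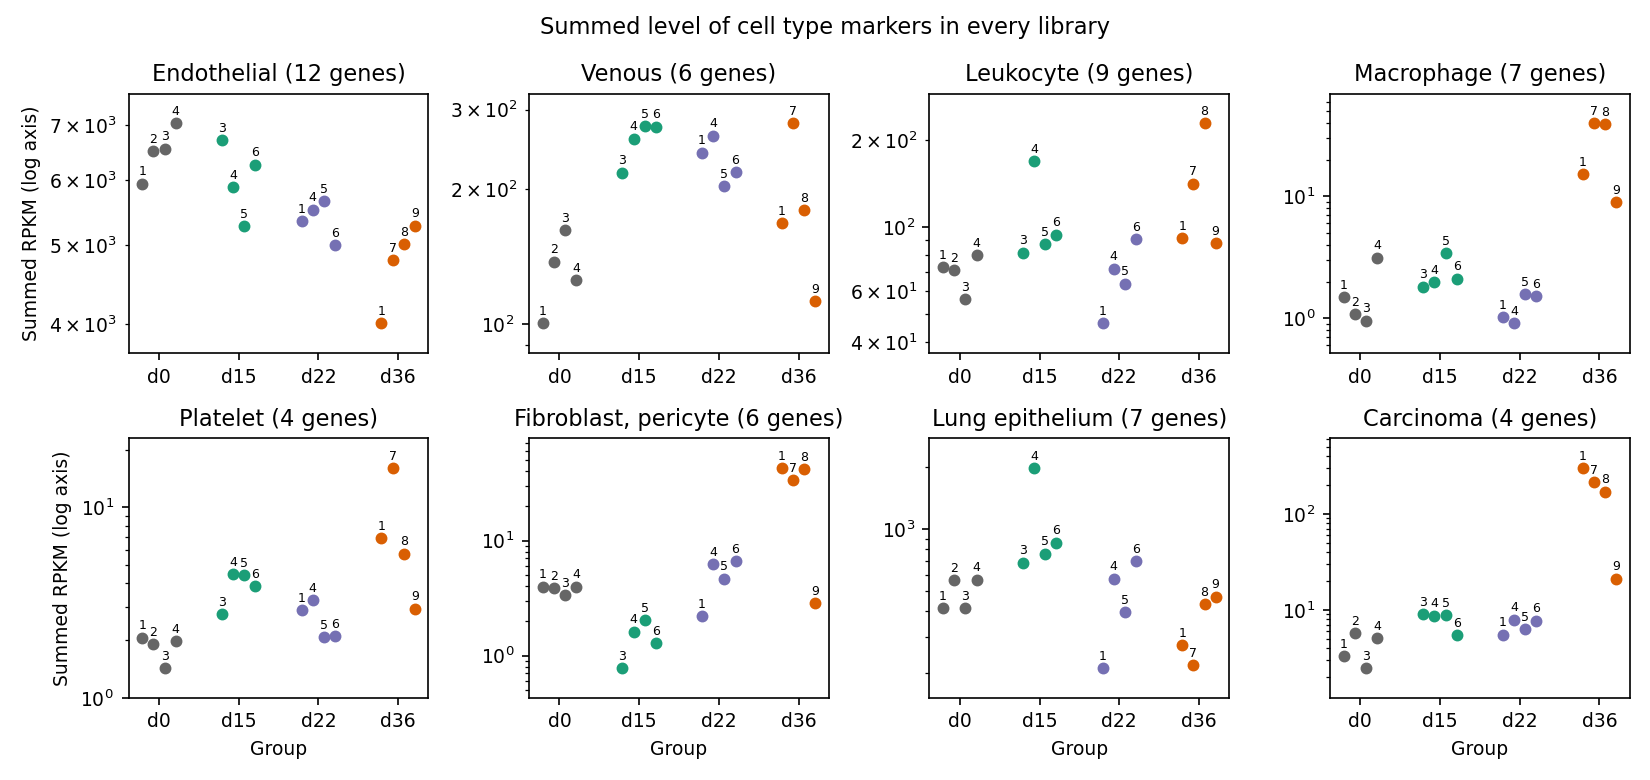
Summed RPKM (log axes) of marker genes of 8 cell types in each library, with replicate numbers. Carcinoma, macrophage, and fibroblast and pericyte markers are high in d36 replicates 1, 7 and 8, and venous markers of all d15 and d22 libraries lie above the d0 range.

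Early-response genes, which also react to tissue dissociation, had positive estimates for all 11 tested genes at each time point. Of all tested entries 0.608%, 8.09% and 16.6% were called higher at d15, d22 and d36, and of these genes 1, 2 and 9. The medians of these genes were 0.63 at d15, 0.45 at d22 and 1.96 at d36. Their summed level was 713 to 1129 RPKM at d0, 950 to 1963 at d15, 844 to 1535 at d22 and 1152 to 5949 at d36. It was highest in d15 replicate 5 and in d36 replicate 7, which also had the highest Icam1 and Selp of their groups. At d22 it was highest in replicate 4, which had the highest Selp and the lowest Icam1 of that group. Within d0 it was highest in replicate 1, the library with the highest Icam1 and the lowest Vcam1, Selp and Sele. Their part in these levels was not tested.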

How the data were processed

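The authors deposited 1 table of RPKM values for 16 libraries, per the file headers, together with their own log2 fold changes and adjusted p-values for the 3 later time points. STAR, DESeq2 and mm10 are named without roles in the submitters' processing notes, while the annotation, transcript length and filters are not given in the sources used here. RPKM values are not counts, so log2(RPKM + 1) was fitted, for the entries that reached 1 RPKM in 4 or more libraries, with limma 3.58.1 (R 4.3.3), with an intensity trend, all 4 groups and no covariate. The script was tested on simulated data. Tests were two-sided with Benjamini-Hochberg adjustment over 14303 entries per comparison, at a threshold of 0.05. Ratios between members were compared with exact permutation tests over samples. Depth was estimated by matching low RPKM values to whole reads, within 0.1 read, of genes with 1 annotated transcript.

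The members and the gene lists were chosen with earlier results of these data known. Named were the 4 members, the 3 genes most like each, and from each list up to 4 genes per comparison with d0 among those past the threshold, by smallest p. Alternatives were a pseudocount of 0.1, no filter or a mean of at least 5 RPKM, quantile or median scaling, fits of 2 groups, array weights, a replicate block and leaving out each library. A fit without the d36 group was added after seeing the data.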

Additional observations from a re-analysis of the deposited data

Results flagged for a closer look

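Vcam1 at d15 had 1 library far from the others: replicate 3 stood at 10.8 RPKM, and replicates 4, 5 and 6 at 18.7 to 19.2. On the log2(RPKM + 1) scale the gap from that library to its nearest neighbour was 0.952 of the whole range of the group and so exceeded Dixon's 95% critical value for 4 libraries. Replicate 3 was also the lowest d15 library for Icam1, Selp and Sele. Such a gap comes up by chance in about 1 of 20 single groups. As 16 groups of a gene and a time point were checked, 1 among them is not unusual. Without that library Vcam1 differed from d0 by 1.26 in place of 1.07 and did not pass in limma over all genes.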

How the results depend on the processing

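Which adhesion genes passed in limma depended on how the spread was estimated. With only the 2 groups compared, Vcam1 at d15 (1.07), Selp at d15 (1.35) and d22 (0.91) and Sele at d22 (0.74) passed and Icam1 at d36 (0.81) did not, and the fit without the d36 group, chosen after seeing the data, passed the same 4 at d15 and d22 with the same values. Array weights, lowest for d36 replicate 9 (0.221), passed Selp at d15 (1.30) and d22 (0.99) and Icam1 in the F test (adjusted p = 0.0366). Icam1 at d36 also missed with no filter (0.81), quantile normalization (0.75) and equal medians (0.67). Signs turned for Sele in d22 against d15 with quantile normalization (-0.0028), for Vcam1 in d36 against d22 with quantile normalization (-0.083) and equal medians (-0.0031), and with a pseudocount of 0.1 for the ratios of Selp to Sele at d22 (-0.30) and Vcam1 to Selp at d36 (-0.052). The minimum mean of 5 RPKM left Sele untested. None of the list genes named as called against d0 turned sign in that comparison under any of these settings. Genes named only for their likeness to a member were not checked.

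Leaving out 1 library at a time gave 0.50 to 1.06 for Icam1 and 0.76 to 1.62 for Sele at d36, and in d36 against d22 0.29 to 0.84 for Icam1, 0.28 to 0.94 for Selp and -0.22 to 0.48 for Vcam1. In d36 against d15 it gave 0.37 to 1.07 for Vcam1, -0.017 to 0.54 for Icam1 and -0.15 to 0.51 for Selp, and in d22 against d15 -0.11 to 0.30 for Sele. The F test ranged from an adjusted p of 0.0114 to 0.212 for Icam1 and from 0.0179 to 0.345 for Sele, each passing only without d36 replicate 9.

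Over all genes, limma called 87 higher at d15, 1157 at d22 and 2376 at d36, and 437 in either direction for d22 against d15, 1645 for d36 against d15 and 1688 for d36 against d22. With array weights these were 370, 2198, 3602, 1281, 2858 and 4017, and with the 2 groups alone 262, 1785, 1524, 792, 401 and 416. A mean of at least 5 RPKM gave 516 at d22, 1195 at d36 and 218, 940 and 975 between later groups. No filter gave 56 at d15, the fit without d36 gave 342 at d15 and 1195 for d22 against d15, and equal medians gave 1500 higher and 2439 lower at d36. Quantile normalization gave 1713 higher and 1980 lower there, against 1054 lower as deposited. Leaving out 1 library gave 14 to 41 at d15, 720 to 1030 at d22, 1788 to 3115 at d36, and 136 to 494, 897 to 2975 and 872 to 3771 between later groups.

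Equal replicate numbers did not pair the libraries. Correlations of deviations lay between -0.11 and 0.21, and 0 of the 6 libraries in the 3 same-numbered pairs of d15 and d22 correlated best with their own number. With the replicate block, limma gave Vcam1 2.27 at d22 (adjusted p = 0.0683), Sele -0.24 in d22 against d15, and 18 genes higher at d15, 0 at d22 and 232 called in d22 against d15. No block was possible for d36, which shares at most 1 number with another group. Depth was at least 93.4 megareads in each library, so low counts bear mainly on Sele, and the 4 libraries a group limit the precision of the other genes.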
